A study of Mus musculus with 12 samples.

Results

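Interferon-gamma and the machinery of cytotoxic lymphocytes were followed through 10 genes chosen by name, which are 10 of the 24062 genes in the count table. All 10 were found in the table, and 9 had enough reads to be tested among 15060 genes. They encode interferon-gamma itself (Ifng), the granule proteins granzyme A, granzyme B, perforin and NKG7 (Gzma, Gzmb, Prf1, Nkg7), the receptor NKG2D (Klrk1), the CD8 alpha and beta chains (Cd8a, Cd8b1) and the T-box transcription factors T-bet and eomesodermin (Tbx21, Eomes). RNA was sequenced from colon tumours of 12 Balb/c mice in which the genotype of the bone marrow and that of the host were crossed, with respect to St2 (Il1rl1), the receptor of interleukin-33. Groups are written as marrow => host. In St2-/- => St2-/- both compartments lacked St2, in WT => St2-/- only the host did, in St2-/- => WT only the marrow did, and WT => WT had St2 in both, with 3 libraries in each group. Every mouse, those of WT => WT included, had been lethally irradiated, transplanted, left to reconstitute for 8 weeks and injected weekly with azoxymethane (AOM), a carcinogen of the colon, at 10 mg per kg for 6 weeks. Tumours were collected when 13 or 14 weeks had passed since injections ended, from 11 males and 1 female, WT => St2-/- replicate 3. An irradiated host keeps its epithelium and connective tissue and can keep some long-lived leukocytes. The sources used here do not give how completely the marrow was replaced.

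Gene counts per library summed to between 10293818 and 12962496. Il1rl1 had 13.4, 7.91 and 10.7 CPM (reads scaled to the TMM-adjusted library size) in St2-/- => St2-/-, 11.9, 25.0 and 7.30 CPM in WT => St2-/-, 124, 36.5 and 193 CPM in St2-/- => WT, and 53.5, 132 and 275 CPM in WT => WT. Every St2-/- host was below every WT host. The labels of all St2-/- hosts carry numbers of 3 digits and those of all WT hosts numbers of 5 digits. The labels do not say what these numbers stand for. Anything that goes with them cannot be told apart from the genotype of the host here. The tumours held epithelium, with 8 epithelial markers summing to 4436 to 10287 CPM in St2-/- hosts and 8087 to 12499 CPM in WT hosts. Smooth muscle markers were highest in WT => St2-/- replicates 2 and 3 and in St2-/- => WT replicates 1 and 2, at 1474 to 3480 CPM, against 228 to 502 CPM in the other libraries. Mast cell markers summed to 2068 CPM in WT => St2-/- replicate 2 and to 630 CPM in replicate 1 of that group, against 85.1 to 261 CPM in all other libraries. By host they summed to 192 to 2068 CPM (median 244) in St2-/- hosts and 85.1 to 261 CPM (median 143) in WT hosts. The mast cell score used as a covariate below rests on these markers, so it cannot be fully told apart from host genotype.

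Cytotoxic T cells and natural killer (NK) cells kill by releasing granules in which perforin opens a path for granzymes into the target cell, and they secrete interferon-gamma, which induces antigen presentation and chemokine genes in the cells around them. T-bet and eomesodermin drive the expression of Ifng and of granule genes, CD8 chains bind MHC class I on the target, and NKG2D recognises stress-induced ligands. In the gut these genes are also expressed by intraepithelial lymphocytes, and mouse mast cells can express granzyme B.

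Promoters are shown for Ifng and Klrk1, the members called between hosts below, and for Gzmb, which was not called. The windows run from 250 bases before to 50 bases after the start of the gene, from RefSeq on GRCm38.p6, which held 9 of the 10 members (not Cd8b1). They are chr10:118440796-118441095 on the plus strand for Ifng, chr6:129623815-129624114 on the minus strand for Klrk1 and chr14:56262285-56262584 on the minus strand for Gzmb. Capitals mark the motifs searched on both strands, the T-box core TCACAC, the palindrome TTCNNNGAA bound by STAT factors and the AP-1 site TGANTCA.
Ifng: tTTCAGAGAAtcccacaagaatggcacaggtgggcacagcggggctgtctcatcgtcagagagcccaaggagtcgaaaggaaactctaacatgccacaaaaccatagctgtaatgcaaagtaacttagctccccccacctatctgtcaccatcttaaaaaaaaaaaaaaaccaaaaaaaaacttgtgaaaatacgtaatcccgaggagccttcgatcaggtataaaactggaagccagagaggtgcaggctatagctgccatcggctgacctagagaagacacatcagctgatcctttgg
Klrk1: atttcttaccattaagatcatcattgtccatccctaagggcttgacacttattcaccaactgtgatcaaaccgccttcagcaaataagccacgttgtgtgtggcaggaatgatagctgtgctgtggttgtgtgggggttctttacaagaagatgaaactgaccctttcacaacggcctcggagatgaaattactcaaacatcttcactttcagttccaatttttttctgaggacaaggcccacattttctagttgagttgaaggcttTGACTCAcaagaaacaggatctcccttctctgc
Gzmb: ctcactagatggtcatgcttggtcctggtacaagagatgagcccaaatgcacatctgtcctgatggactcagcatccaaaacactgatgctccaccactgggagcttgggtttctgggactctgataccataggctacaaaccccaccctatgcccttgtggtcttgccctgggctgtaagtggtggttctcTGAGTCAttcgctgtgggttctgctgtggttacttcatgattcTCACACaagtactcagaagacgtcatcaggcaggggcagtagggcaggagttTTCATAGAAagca

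The T-box core was present in the promoters of Gzmb and Nkg7, 2 of the 9 members with a promoter, and in 14.5% of all 32851 promoters of that length. The STAT palindrome was in 3 of the 9 (Ifng, Gzmb and Nkg7) and in 8.30% of all promoters. The AP-1 site was in 2 (Gzmb and Klrk1) and in 7.81% of all promoters. No match overlapped another. Gzmb carried all 3 motifs, and the promoters of Gzma, Prf1, Cd8a, Tbx21 and Eomes held none of them in this window.

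The main comparison set the 6 St2-/- hosts against the 6 WT hosts, averaged over both marrows. Ifng and Klrk1 fell in tumours of St2-/- hosts. Cd8a, Cd8b1, Nkg7 and Tbx21 were between 2.16 and 2.55 lower on the log2 scale without passing the test over all genes. Gzma, Gzmb, Prf1 and Eomes overlapped widely between hosts. In these bulk tumours, fewer lymphocytes and less RNA per lymphocyte cannot be told apart.

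Ifng, on chromosome 10 from 118441046 to 118445892 (GRCm38, plus strand, 3 exons), had 1, 2 and 1 reads in St2-/- => St2-/- and 0, 1 and 0 reads in WT => St2-/-, against 21, 48 and 6 reads in St2-/- => WT and 6, 11 and 24 reads in WT => WT. No St2-/- host had more than 2 reads and no WT host fewer than 6. On the CPM scale the mean was 0.104 ± 0.0470 in St2-/- => St2-/-, 0.0290 ± 0.0502 in WT => St2-/-, 2.15 ± 1.82 in St2-/- => WT and 1.16 ± 0.703 in WT => WT (SD, n = 3 each). The St2-/- host groups overlapped each other, as did the WT host groups, while no library of one host genotype reached those of the other. The 5 reads in St2-/- hosts and 116 in WT hosts made the level in WT hosts 24.5 times that in St2-/- hosts after scaling for depth, with a 95% exact counting interval of 10.2 to 77.0 that covers counting error only. By edgeR's quasi-likelihood test Ifng fell, with a log2 fold change of -4.57 and an SE of 0.73 (adjusted p = 0.0124). The gene passed the filter on low counts only through the WT hosts. Its adjusted p was 0.0544 without St2-/- => St2-/- replicate 1 and 0.0535 without replicate 3 of that group. It was 0.128 without WT => St2-/- replicates 2 and 3, and 0.340 with a mast cell marker score as a covariate. The log2 fold change lay between -5.53 and -3.92 over all 24 alternative settings. A same-strand predicted transcript, Gm49751, overlaps 336 exonic bases of Ifng, and 19.9% of its 50-base windows are shared with it, so some of its reads may have been left uncounted or split.

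**Figure D1:**
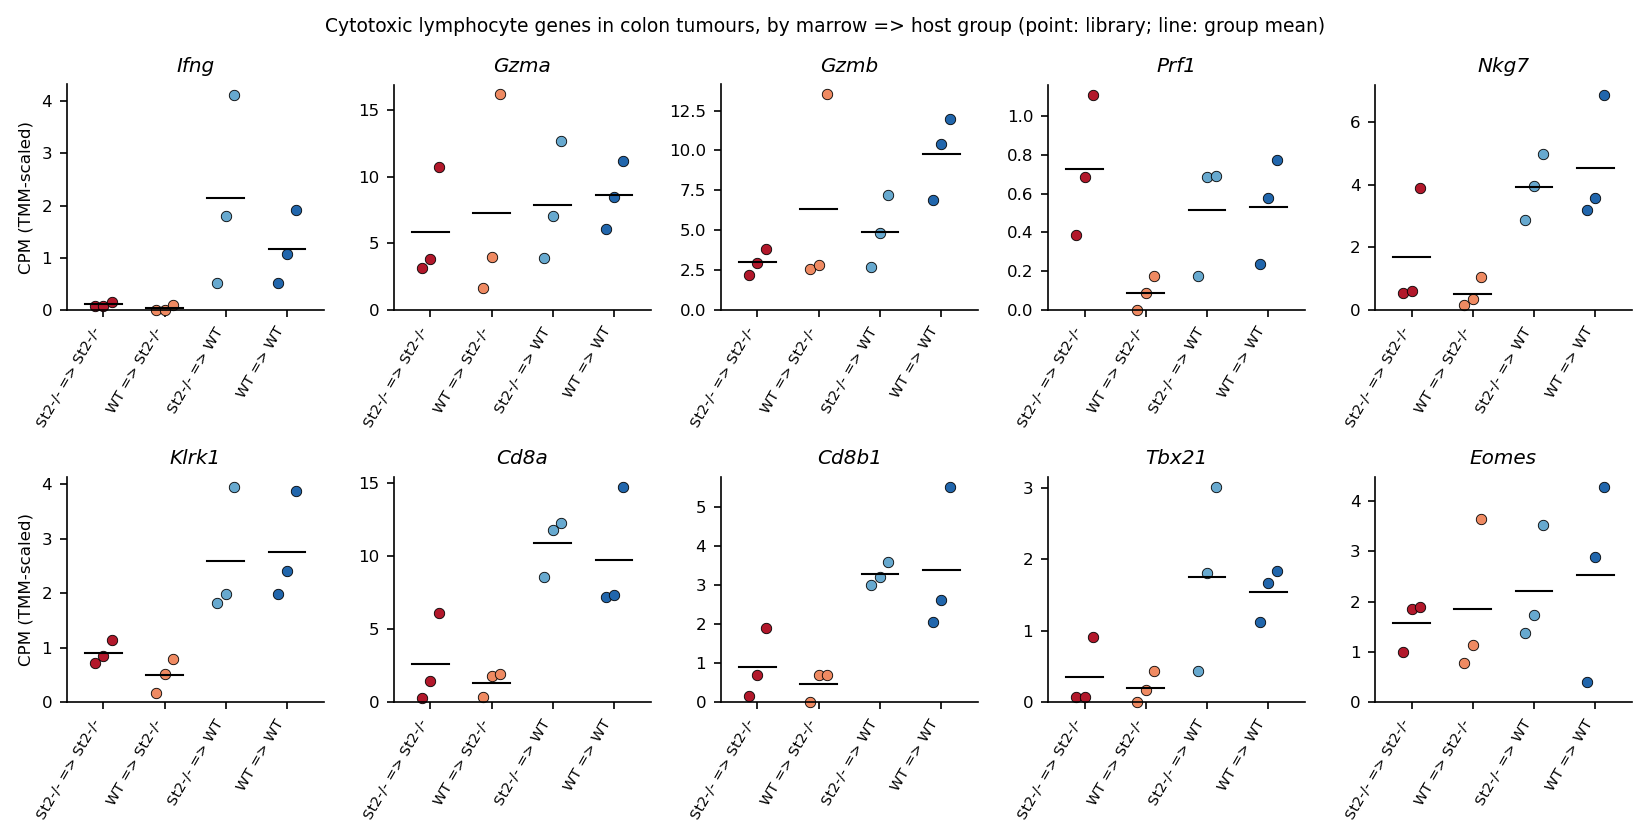
Level of each of the 10 genes in every library (points, TMM-scaled CPM on linear axes that differ between panels) in the 4 marrow => host groups, with the group mean as a line and St2-/- hosts to the left of WT hosts. All 6 St2-/- hosts lie below all 6 WT hosts for Ifng, Klrk1, Cd8a and Cd8b1, while Gzma, Gzmb, Prf1 and Eomes overlap.

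Among the receptors, Klrk1 (chromosome 6, 129610323 to 129623864, minus strand) had 1.15, 0.712 and 0.850 CPM in St2-/- => St2-/- and 0.169, 0.522 and 0.791 CPM in WT => St2-/-. It had 1.98, 3.94 and 1.82 CPM in St2-/- => WT and 2.40, 3.86 and 1.99 CPM in WT => WT. The highest St2-/- host stayed below the lowest WT host in both marrow backgrounds. Klrk1 fell by 1.98 (SE 0.38, edgeR adjusted p = 0.0345). This call was close to the threshold, and the adjusted p was between 0.0588 and 0.125 when WT => WT replicates 1, 2 or 3, St2-/- => WT replicates 1 or 2, WT => St2-/- replicate 2 or any 1 of the St2-/- => St2-/- libraries was left out. It was 0.108 without WT => St2-/- replicates 2 and 3 together, 0.0704 with the replicate number as a block and 0.575 with the mast cell score, while the log2 fold change stayed between -2.72 and -1.45.

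Cd8a and Cd8b1 are neighbours on chromosome 6, at 71373427 to 71379173 and 71322788 to 71337494 on the plus strand. Cd8a had 1.45, 6.09 and 0.309 CPM in St2-/- => St2-/- and 0.339, 1.91 and 1.76 CPM in WT => St2-/-, against 12.2, 11.7 and 8.59 CPM in St2-/- => WT and 7.21, 14.7 and 7.32 CPM in WT => WT. Cd8b1 had 0.688, 1.90 and 0.155 CPM in St2-/- => St2-/- and 0, 0.696 and 0.703 CPM in WT => St2-/-, against 3.02, 3.60 and 3.21 CPM in St2-/- => WT and 2.06, 5.51 and 2.63 CPM in WT => WT. For both chains every St2-/- host lay below every WT host, with St2-/- => St2-/- replicate 2 the highest of the St2-/- hosts. The log2 fold change was -2.45 for Cd8a (SE 0.60, edgeR adjusted p = 0.0793) and -2.34 for Cd8b1 (SE 0.64, adjusted p = 0.102), and neither was called. Without St2-/- => St2-/- replicate 2, Cd8a fell by 3.23 (edgeR adjusted p = 0.0231). Leaving out any other single library gave Cd8a an edgeR adjusted p between 0.0757 and 0.185, and the mast cell score as a covariate gave 0.554. The 2 chains had a Pearson correlation of 0.982 over the 12 libraries, given as a description of libraries that share depth and tissue makeup. Of the 50-base windows of Cd8b1, 6.28% occur in other genes too, so a small part of its reads may have been lost.

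Of the granule genes, Nkg7, which encodes a membrane protein of cytotoxic granules, had 0.611, 3.88 and 0.541 CPM in St2-/- => St2-/- and 0.169, 1.04 and 0.352 CPM in WT => St2-/-. It had 3.96, 4.97 and 2.86 CPM in St2-/- => WT and 3.18, 6.86 and 3.58 CPM in WT => WT. St2-/- => St2-/- replicate 2 reached into the range of the WT hosts and the other 5 St2-/- hosts did not. The log2 fold change of -2.16 (SE 0.57) was not called (edgeR adjusted p = 0.0958). Nkg7 fell by 2.92 without St2-/- => St2-/- replicate 2 (edgeR adjusted p = 0.0209), the St2-/- host with the highest value. It fell by 2.50 with the replicate number as a block (edgeR adjusted p = 0.0257), though that number does not pair the samples. Leaving out any other single library gave an edgeR adjusted p between 0.0874 and 0.227, and the mast cell score as a covariate gave 0.545.

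Gzmb, the granzyme that activates caspases in target cells, had 2.22, 3.80 and 2.94 CPM in St2-/- => St2-/- and 2.79, 13.6 and 2.55 CPM in WT => St2-/-. It had 4.83, 7.20 and 2.69 CPM in St2-/- => WT and 6.87, 11.98 and 10.4 CPM in WT => WT. The value of 13.6 CPM, the highest of the 12, came from WT => St2-/- replicate 2, and the other 5 St2-/- hosts lay between 2.22 and 3.80 CPM. That library was the highest in mast cell markers (2068 CPM) and smooth muscle markers (3480 CPM), and the lowest in epithelial markers (4436 CPM). WT => St2-/- replicate 1, next in mast cell markers at 630 CPM, had 2.79 CPM of Gzmb. Which cells the Gzmb reads came from was not tested. The log2 fold change between hosts was -0.67 (SE 0.44, edgeR adjusted p = 0.408, 95% interval -1.64 to 0.30), and it was -1.52 (adjusted p = 0.675) with the mast cell score as a covariate.

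Gzma, a granzyme of T and NK cells, had 3.13, 10.7 and 3.79 CPM in St2-/- => St2-/- and 1.61, 16.2 and 3.96 CPM in WT => St2-/-, against 7.07, 12.7 and 3.90 CPM in St2-/- => WT and 6.10, 8.50 and 11.1 CPM in WT => WT. Its highest value was again in WT => St2-/- replicate 2, and the hosts overlapped over nearly the whole range. The log2 fold change was -0.34 (SE 0.54, edgeR adjusted p = 0.768, 95% interval -1.54 to 0.86). Gzma and Gzmb had a Pearson correlation of 0.804 over the 12 libraries, as a description.

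Prf1, the pore-forming protein of the granule, was the member removed by the filter on low counts. It had 9, 14 and 5 reads in St2-/- => St2-/-, 0, 2 and 1 reads in WT => St2-/-, 8, 8 and 2 reads in St2-/- => WT and 9, 6 and 3 reads in WT => WT. WT => St2-/- stood lowest, below every WT => WT library, and St2-/- => St2-/- held the highest single library. Hosts differed by -0.116 CPM, St2-/- minus WT (exact two-sided permutation p = 0.565, n = 6 each, with 0.00216 the smallest p this design allows).

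Of the transcription factors, Tbx21 had 0.917, 0.0791 and 0.0773 CPM in St2-/- => St2-/- and 0, 0.174 and 0.439 CPM in WT => St2-/-. It had 1.81, 3.00 and 0.434 CPM in St2-/- => WT and 1.12, 1.84 and 1.67 CPM in WT => WT. The hosts overlapped through St2-/- => St2-/- replicate 1 and WT => St2-/- replicate 3, which were above the lowest WT host, St2-/- => WT replicate 3. The log2 fold change was -2.55 (SE 0.74, edgeR adjusted p = 0.116), but Tbx21 fell by 2.26 with the leukocyte score as a covariate (edgeR adjusted p = 0.0374). With the T cell score its edgeR adjusted p was 0.0547 and with the mast cell score 0.732. Leaving out single libraries gave values between 0.0769 and 0.264. Eomes, the other T-box factor, had 0.783 to 3.64 CPM in St2-/- hosts with a median of 1.50 CPM, and 0.398 to 4.29 CPM in WT hosts with a median of 2.32 CPM. Its log2 fold change was -0.46 (SE 0.56, edgeR adjusted p = 0.678), and its Pearson correlation with the other 9 genes over the 12 libraries lay between -0.37 and 0.19. An antisense transcript, Gm33460, overlaps 118 exonic bases of Eomes, and without a stated strand setting its reads cannot be told apart from those of Eomes.

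In all, 2 of the 9 tested members were called between hosts, where 1.37% of all 15060 genes were called in either direction. Both members were lower, as were 1.08% of all genes. An unadjusted p under 0.05 was reached by 6 of the 9 members and by 3099 genes in edgeR. Over the 9 tested members the median log2 fold change was -2.16, against -0.0015 over all genes. Ifng, Nkg7, Cd8b1 and Tbx21 passed the filter on low counts only through the WT hosts, where they are high. The direction and median of the tested members are therefore in part set by the filter, here and within each marrow. The same holds for the counts of members called lower by any of the 3 tools and of members without overlap. All of these are given as a description. Klrk1 reached the level the filter asks for in 3 of the 6 St2-/- hosts, the fewest that suffice. DESeq2 called 6 members lower (Ifng, Klrk1, Cd8a, Cd8b1, Nkg7 and Tbx21) where it called 4.55% of all genes lower. Voom of limma called 7 lower, the 6 named for DESeq2 and Gzmb, where it called 7.32% of all genes lower. Levels of all 6 St2-/- hosts below all 6 WT hosts were found for 4 of the 9 tested members and for 1.71% of the tested genes.

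**Figure D2:**
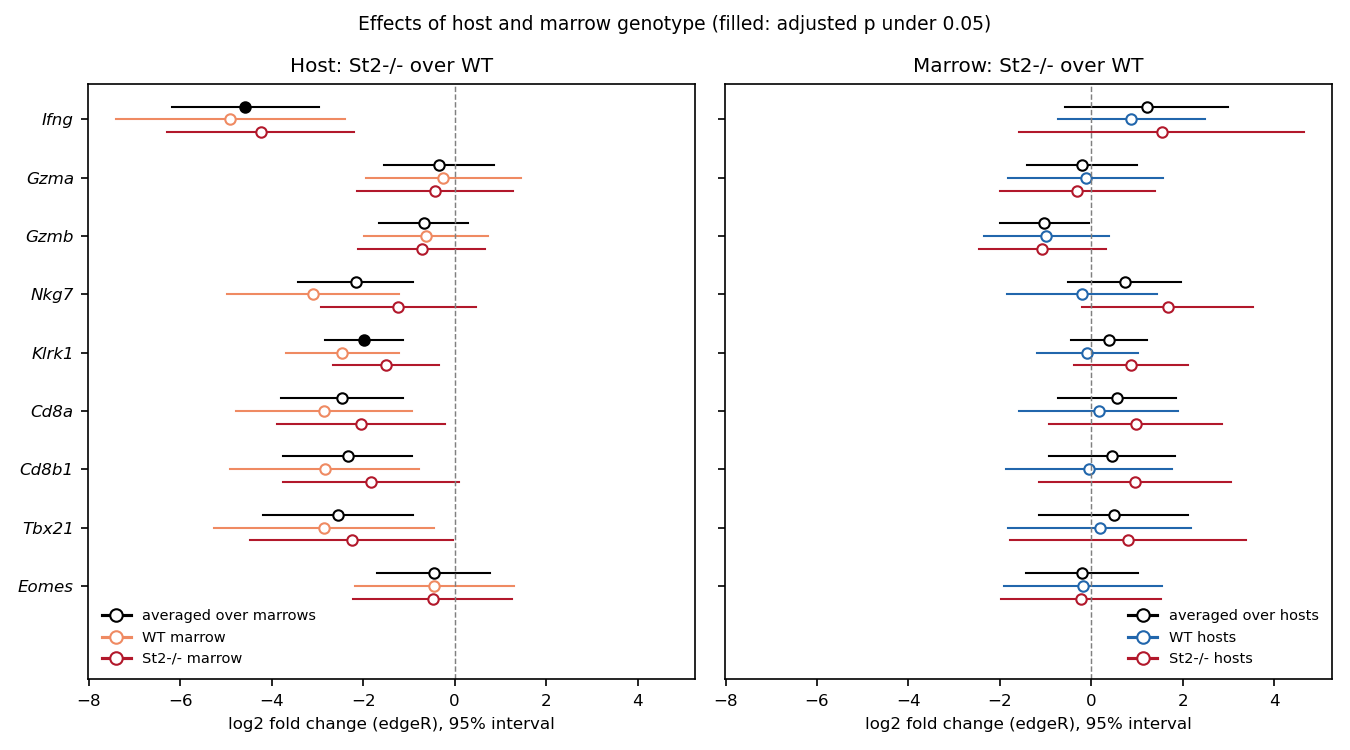
Log2 fold change of the 9 tested genes by edgeR with 95% intervals, for St2-/- over WT hosts on the left and St2-/- over WT marrow on the right, each averaged and within single backgrounds. Filled points passed an adjusted p under 0.05. The host effects lie left of 0 and the marrow effects on both sides of it.

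With WT marrow, WT => St2-/- was set against WT => WT. No member was called, where 0.159% of all genes were called. An unadjusted p under 0.05 was reached by 6 of the 9 members and by 2514 genes. For Klrk1 the log2 fold change was -2.45 (SE 0.56, edgeR adjusted p = 0.0977), for Ifng -4.90 (SE 1.13, adjusted p = 0.101) and for Nkg7 -3.10 (SE 0.85, adjusted p = 0.144), and the median of the 9 was -2.84. DESeq2 called 5 members lower, where it called 2.86% of all genes lower, and voom called 1, where it called 1.37% of all genes lower. All 3 WT => St2-/- libraries were below all 3 WT => WT libraries for 6 of the 9 tested members (Ifng, Nkg7, Klrk1, Cd8a, Cd8b1 and Tbx21), and for 9.82% of the tested genes. This was also so for Prf1, which was below the filter.

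With St2-/- marrow, St2-/- => St2-/- was set against St2-/- => WT. Again 0 members were called, where 0.0598% of all genes were called, and 4 members and 1809 genes reached an unadjusted p under 0.05. For Ifng the log2 fold change was -4.24 (SE 0.93, edgeR adjusted p = 0.177), for Klrk1 -1.50 (SE 0.53, adjusted p = 0.360) and for Nkg7 -1.23 (SE 0.77, adjusted p = 0.520), with a median of -1.50. DESeq2 called 1 member lower, where it called 1.38% of all genes lower, and voom called 6, where it called 7.93% of all genes lower. All 3 St2-/- => St2-/- libraries were below all 3 St2-/- => WT libraries for 4 members (Ifng, Klrk1, Cd8a and Cd8b1), and for 12.7% of the tested genes.

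The host comparisons within each marrow share no library, and the difference between them was tested. For none of the 9 members (0% of all genes, 0 of 15060) was it called, with edgeR adjusted p between 0.704 and 0.996. At an unadjusted p under 0.05 there were 0 members and 1144 genes. The widest gap was for Nkg7, whose host effect was 1.87 higher with St2-/- marrow (95% interval -0.61 to 4.34). For Ifng it was 0.66 higher (-2.23 to 3.56), so an effect of several log2 units more in one marrow than in the other is within the intervals.

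The marrow genotype gave no call among the members. Averaged over hosts, 0 members and 0% of all genes were called by edgeR, with every member at an adjusted p of 0.999. At an unadjusted p under 0.05 there were 1 member and 415 genes. That member was Gzmb, with a log2 fold change of -1.03 (SE 0.44, 95% interval -2.01 to -0.06), and Ifng had 1.21 (SE 0.81, 95% interval -0.58 to 2.99). In St2-/- hosts (St2-/- => St2-/- against WT => St2-/-) 0% of all genes and 0 members were called, Nkg7 had 1.67 (SE 0.84, adjusted p = 0.995) and 0 members were under an unadjusted p of 0.05, as were 610 genes. In WT hosts (St2-/- => WT against WT => WT) 0% of all genes and 0 members were called, Gzmb had -0.99 (SE 0.62, adjusted p = 0.817), and 0 members and 910 genes were under an unadjusted p of 0.05. DESeq2 and voom also called 0 members in each of these marrow comparisons, where they called 0% of all genes over both hosts and in WT hosts, and 0.113% and 0.0266% in St2-/- hosts, the first of these by DESeq2, which gave an adjusted p to 7 of the 9 members there. At an unadjusted p under 0.05 DESeq2 had 1 member over both hosts and 1 in St2-/- hosts, and voom had 2 in WT hosts.

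When both compartments lacked St2 (St2-/- => St2-/- against WT => WT), 0 members were called by edgeR, where 0.0266% of all genes were called, and at an unadjusted p under 0.05 there were 4 members and 2067 genes. Ifng had a log2 fold change of -3.37 (SE 0.94, adjusted p = 0.215), Klrk1 of -1.59 (SE 0.53, adjusted p = 0.248), Gzmb of -1.71 (SE 0.63, adjusted p = 0.289) and Cd8a of -1.89 (SE 0.83, adjusted p = 0.350), and the median was -1.71. Voom called 7 members lower, where it called 6.53% of all genes lower. DESeq2 called 0, where it called 1.75% of all genes lower, but it gave an adjusted p to only 5 of the 9 members, and 5 were under an unadjusted p of 0.05. This comparison shares its libraries with those above.

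General T cell genes were set beside the members. The 8 T cell markers, among them Cd3d, Cd3e, Cd3g, Cd2, Lck, Cd5 and Cd6, summed to 17.3 to 74.8 CPM in St2-/- hosts, with a median of 42.4 CPM, and to 30.3 to 78.2 CPM in WT hosts, with a median of 58.6 CPM. None was at 0 throughout and none was called. The summed level of the CD3 chains Cd3d, Cd3e and Cd3g, which belong to the T cell receptor complex of all T cells, was 13.0 ± 6.82 CPM in St2-/- hosts and 18.5 ± 7.10 CPM in WT hosts (SD, n = 6 each). These overlapped, at 2.54 to 20.8 CPM in St2-/- hosts and 7.55 to 27.1 CPM in WT hosts.

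Relative to that CD3 sum, Ifng stood at 0.528 ± 0.511% in St2-/- hosts and 8.35 ± 4.40% in WT hosts (SD, n = 6 each), and Tbx21 at 1.60 ± 1.59% in St2-/- hosts and 8.45 ± 2.02% in WT hosts, with no overlap between hosts in either. Klrk1 stood at 5.69 ± 1.15% in St2-/- hosts and 15.3 ± 4.88% in WT hosts, also without overlap. Cd8a stood at 16.8 ± 17.3% in St2-/- hosts and 62.1 ± 27.8% in WT hosts, where St2-/- => St2-/- replicate 2 at 50.3% reached into the WT range. Nkg7 (9.68 ± 11.3% in St2-/- hosts, 24.4 ± 7.39% in WT hosts) and Cd8b1 (5.09 ± 5.68% and 20.4 ± 11.3%) overlapped through the same library. Prf1 (2.97 ± 3.32% and 2.92 ± 1.41%) also overlapped, as did Eomes (32.1 ± 54.7% and 15.1 ± 10.6%), whose mean was higher in St2-/- hosts. The share of all genes without overlap on this measure is not given here. Gzma, at 62.6 ± 54.3% in St2-/- hosts and 45.3 ± 8.73% in WT hosts, and Gzmb, at 53.6 ± 53.3% in St2-/- hosts and 39.7 ± 11.4% in WT hosts, overlapped between hosts. WT => St2-/- replicate 2 was left out after its values were seen. The mean over the other 5 St2-/- hosts was then 43.5 ± 31.3% for Gzma and 37.8 ± 41.2% for Gzmb (SD), slightly below the means of the WT hosts. These 5 hosts still ranged from 15.1 to 88.2% for Gzma and from 10.7 to 110% for Gzmb, where WT hosts reached 58.1% and 54.4%. The value of 110% was in WT => St2-/- replicate 1, whose CD3 sum was only 2.54 CPM. With a T cell marker score as a covariate, Ifng fell by 3.92 (edgeR adjusted p = 0.0412) and Klrk1 by 1.64 (edgeR adjusted p = 0.0344), and Gzma had a log2 fold change of 0.02.

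**Figure D3:**
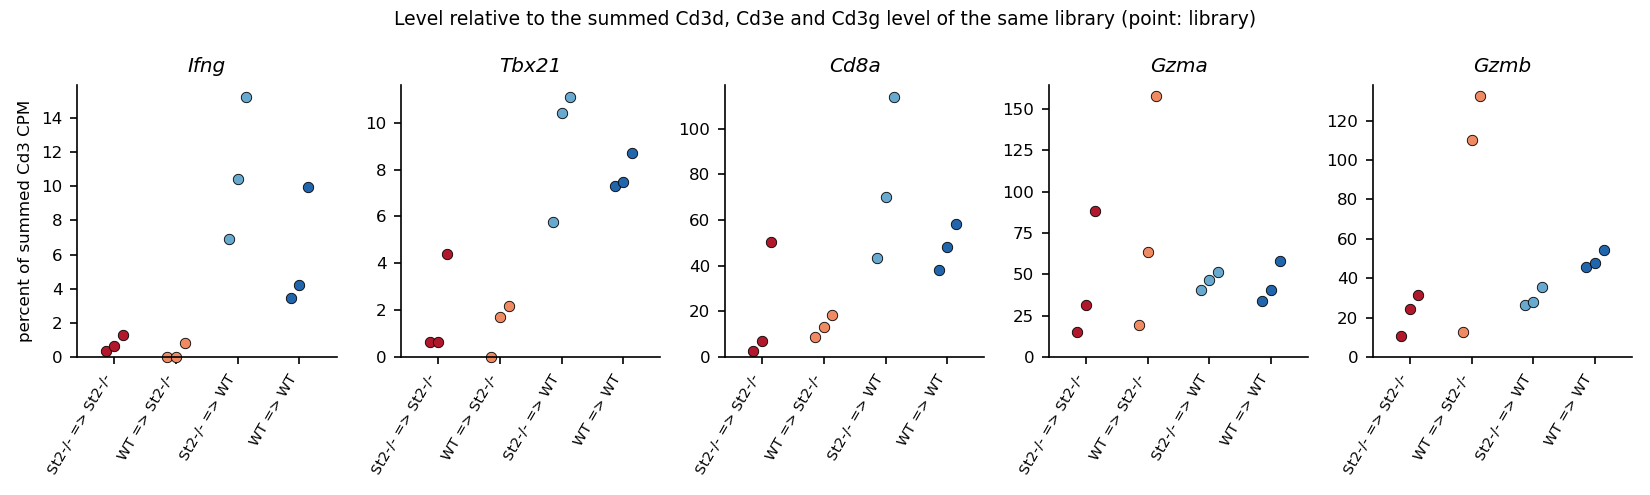
Levels of 5 genes as a percent of the summed Cd3d, Cd3e and Cd3g CPM of the same library (points), by marrow => host group with St2-/- hosts on the left. Ifng and Tbx21 are lower in all 6 St2-/- hosts than in any WT host, while Gzma and Gzmb reach their highest percentages in WT => St2-/- replicate 2.

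NK cell markers were scarce. The 7 genes of that list summed to 0.169 to 2.37 CPM in St2-/- hosts and 1.91 to 3.98 CPM in WT hosts, and Klra4 and Klra8 had no read in any library. Ncr1, which encodes the activating receptor NKp46, had 18 reads over the 6 St2-/- hosts and 38 over the 6 WT hosts. Klrd1, the partner chain of NKG2 receptors, had 0.550 ± 0.547 CPM in St2-/- hosts and 1.23 ± 0.254 CPM in WT hosts (SD, n = 6 each). Leukocyte markers summed to 153 to 796 CPM in St2-/- hosts and 227 to 676 CPM in WT hosts and macrophage markers to 191 to 772 CPM in St2-/- hosts and 412 to 1294 CPM in WT hosts. B cell markers summed to 31.0 to 478 CPM in St2-/- hosts and 5.80 to 267 CPM in WT hosts, and dendritic cell markers to 13.2 to 40.3 CPM in St2-/- hosts and 31.5 to 65.7 CPM in WT hosts. Neutrophil markers summed to 8.26 to 135 CPM in St2-/- hosts and 40.1 to 435 CPM in WT hosts. The part of these cell types in the host difference of the members was not tested, beyond the T cell, leukocyte, smooth muscle and mast cell scores used as covariates.

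Other genes of the granule pathway mostly did not pass the test. Of 19 listed granule and exocytosis genes, 13 were tested, 1 fell and none rose, and the median log2 fold change was -0.37. Ctsw, which encodes a cysteine protease of cytotoxic lymphocytes, had 0.254 to 2.75 CPM in St2-/- hosts and 4.38 to 9.47 CPM in WT hosts, without overlap, and fell by 2.01 (SE 0.42, edgeR adjusted p = 0.0474). The edgeR adjusted p of this protease gene, Ctsw, was between 0.0658 and 0.162 when WT => WT replicates 1, 2 or 3, St2-/- => WT replicates 1 or 2, WT => St2-/- replicate 2 or any 1 of the St2-/- => St2-/- libraries was left out, and 0.505 with the mast cell score. Ctsc, whose protease activates progranzymes, had a log2 fold change of -0.69 (SE 0.17, adjusted p = 0.0748), and Serpinb9, an inhibitor of granzyme B, of -0.67 (SE 0.19, adjusted p = 0.113). Gzmd, Gzme, Gzmf, Gzmg, Gzmk and Gzmn had too few reads to be tested. DESeq2 called 3 genes of this list lower and voom 4.

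Of the death ligands and effector cytokines, 7 of 10 were tested and none was called (median -0.41). Tnf stood closest to the threshold, at 21.7 ± 8.38 CPM in St2-/- hosts and 42.6 ± 9.45 CPM in WT hosts (SD, n = 6 each), where the log2 fold change was -1.01 (SE 0.22, edgeR adjusted p = 0.0502). Without WT => St2-/- replicate 1 the adjusted p of Tnf was 0.0125. Tnfsf10, the TRAIL ligand, had -1.44 (SE 0.33, adjusted p = 0.0636) and Fasl, which triggers death through FAS, -1.91 (SE 0.57, adjusted p = 0.120). On the target side of killing, 13 of 13 genes were tested and none was called (median -0.52). The pore-forming gasdermin gene Gsdmd had -0.71 (SE 0.16, adjusted p = 0.0562) and Bak1, of the mitochondrial death pathway, -0.63 (SE 0.14, adjusted p = 0.0600). DESeq2 called 3 death ligand or cytokine genes and 9 target side genes lower, voom 3 and 8, and edgeR without WT => St2-/- replicate 1 called 1 and 4.

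The lymphocyte lists held no call by edgeR. For NK cell receptors, 9 of 28 genes were tested, with a median of -0.72, and the lowest p belonged to Cd160 (-1.05, SE 0.29, edgeR adjusted p = 0.104), Fcgr3 (-0.72, adjusted p = 0.148) and Itga2 (0.86, adjusted p = 0.322). For NKG2D adaptors and ligands, 3 of 10 were tested, with a median of -0.40, namely the adaptor genes Tyrobp (-0.64, adjusted p = 0.253) and Hcst (-0.40, adjusted p = 0.455), which pass on the signal of NKG2D, and the ligand gene Ulbp1 (0.17, adjusted p = 0.858). Over the lymphocyte lists, DESeq2 called 1 gene among the NK cell receptors and 3 among the gamma delta T and intraepithelial genes described next, and voom called 0 and 1.

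T cell identity genes had 20 of 25 members tested and a median of -0.22, with Tcf7 at 0.66 (SE 0.27, edgeR adjusted p = 0.213), Lcp2 at -0.50 (adjusted p = 0.241) and Bcl11b at 0.28 (adjusted p = 0.297). Lymphocyte transcription factors had 15 of 16 tested and a median of 0.01, with Runx1 at 0.37 (adjusted p = 0.249), Id2 at 0.39 (adjusted p = 0.345) and Id3 at 0.50 (adjusted p = 0.390). The list set up for gamma delta T and intraepithelial lymphocytes had 7 of 12 genes tested and a median of -1.34. In it were Cd7 at -1.34 (SE 0.41, adjusted p = 0.126) and the butyrophilin-like genes Btnl1 at -2.21 (SE 0.75, adjusted p = 0.152) and Btnl6 at -2.16 (SE 0.74, adjusted p = 0.155). Tcf7, Bcl11b and Runx1 are not restricted to T cells. Btnl1 and Btnl6 are not lymphocyte markers, so the median of their list does not measure lymphocytes alone.

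Upstream of Ifng, 16 of 17 genes of the inducing cytokines and their receptors were tested, of which Il18bp fell and none rose (median -0.24). Il18bp, the inhibitor of interleukin-18, had 9.59 to 18.0 CPM in St2-/- hosts and 31.2 to 63.4 CPM in WT hosts and fell by 1.94 (SE 0.22, edgeR adjusted p = 0.00325). Il12b, a subunit of interleukin-12, which induces Ifng, had 11 reads over the 6 St2-/- hosts and 56 over the 6 WT hosts, with a log2 fold change of -2.65 (SE 0.64, adjusted p = 0.0718). Il15ra, which presents interleukin-15 to lymphocytes, had -0.91 (SE 0.25, adjusted p = 0.102). DESeq2 called 4 genes of this list lower and voom 5. Il18bp had an edgeR adjusted p of 0.106 without WT => St2-/- replicates 2 and 3 and of 0.193 with the mast cell score.

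Of the T cell chemokines and receptors, 13 of 14 genes were tested, 4 fell and none rose (median -1.28). Among those that fell were the CXCR3 ligand genes Cxcl9 (-4.00, SE 0.72, edgeR adjusted p = 0.0246), Cxcl10 (-3.25, SE 0.56, adjusted p = 0.0220) and Cxcl11 (-3.27, SE 0.59, adjusted p = 0.0257). Cxcl9 had 0.931 to 40.0 CPM in St2-/- hosts, with a median of 2.89 CPM, and 44.2 to 189 CPM in WT hosts, with a median of 83.5 CPM, without overlap. DESeq2 called 9 genes of this list lower and voom 10, but edgeR called 0 with the T cell score, with the mast cell score, and without WT => WT replicates 2 or 3, WT => St2-/- replicate 2 or St2-/- => St2-/- replicate 1. It called 1 without St2-/- => WT replicate 2, and the log2 fold change of Cxcl9 stayed between -4.92 and -3.49 over all 24 settings.

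**Figure D4:**
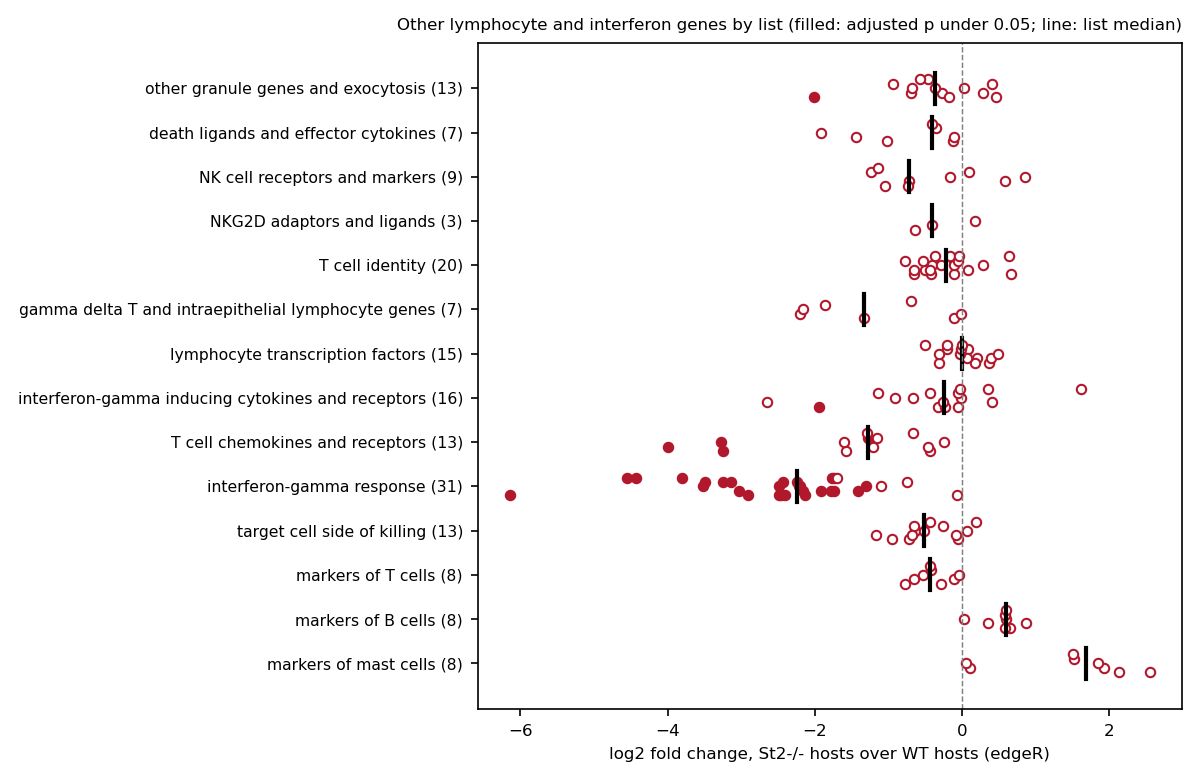
Log2 fold change by edgeR, St2-/- over WT hosts, of every tested gene (points, the number tested in brackets) in 11 pathway lists and 3 lists of cell type markers, with the list median as a line. Filled points passed an adjusted p under 0.05, and they lie mainly in the interferon-gamma response and T cell chemokine lists.

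Genes of the interferon-gamma response list, which also holds the genes of the interferon-gamma receptor, were lower as well. Of these, 27 of 31 were called lower by edgeR, where 1.08% of all genes were. Their median was -2.24, with Ido1, Wars and Cd274 at the lowest p. The count was 1 without WT => St2-/- replicates 2 and 3 together and 2 with the mast cell score. Their mean log2 CPM in each library was set beside Ifng within each host genotype, 2 relations in all. Among the 6 St2-/- hosts, where Ifng had 0 to 2 reads, Pearson's r was 0.51 (exact permutation p = 0.303, adjusted p = 0.303) and Spearman's rho 0.06 (exact permutation p = 0.933, adjusted p = 0.933). Among the 6 WT hosts, Pearson's r was 0.88 (exact permutation p = 0.0236, adjusted p = 0.0472) and Spearman's rho 0.83 (exact permutation p = 0.0583, adjusted p = 0.117). Without the 2 libraries farthest from the median of Ifng, r was 0.77 in St2-/- hosts (exact permutation p = 0.250, n = 4) and 0.58 in WT hosts (exact permutation p = 0.542, n = 4). With 4 libraries over a narrower range of Ifng, these values do not show whether the relation in WT hosts rests on the 2 left out. The score was 4.37 to 5.84 in St2-/- hosts and 6.60 to 8.27 in WT hosts, without overlap.

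**Figure D5:**
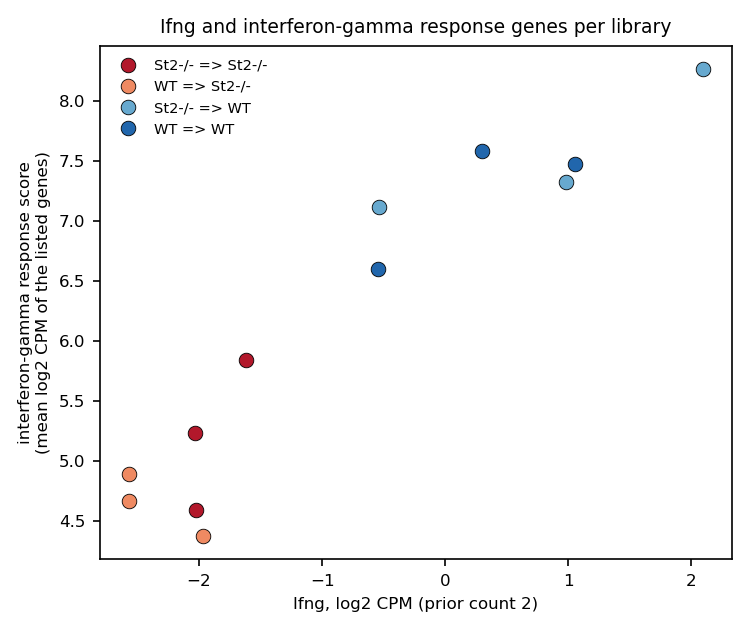
Mean log2 CPM of 31 interferon-gamma response genes against log2 CPM of Ifng with a prior count of 2, one point a library, coloured by marrow => host group. The 6 St2-/- hosts lie at scores of 4.37 to 5.84 and the 6 WT hosts at 6.60 to 8.27, and no correlation was taken over both clusters.

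The genes whose levels over the 12 libraries were most like the mean of the 9 tested members were 9530082P21Rik (Pearson's r 0.982), Cxcl9 (0.942), Naaa (0.934), Gbp11 (0.934), Tgtp2 (0.933), Psme1 (0.932), Fam26f (0.929), Snx3 (0.929), Serpina3f (0.928) and Tgtp1 (0.926). These are descriptions over libraries that share host genotype, depth and tissue makeup, and Tgtp1 and Tgtp2 are close relatives whose reads can be shared. 9530082P21Rik had 59.5 CPM in St2-/- hosts and 81.9 CPM in WT hosts on average, with a log2 difference of -0.46 (SE 0.10, edgeR adjusted p = 0.0426) whose call was lost in 16 of 24 settings, among them the omission of any library except St2-/- => WT replicate 3 and WT => St2-/- replicate 2.

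Levels were compared between members per kilobase of exon (RPKM, with GENCODE M21 exon lengths). In St2-/- hosts the order of mean levels was Gzma at 6.52, Gzmb at 3.23, Nkg7 at 1.20, Cd8a at 0.544, Cd8b1 at 0.465, Eomes at 0.414, Prf1 at 0.158, Tbx21 at 0.113, Klrk1 at 0.0972 and Ifng at 0.0513 RPKM. In WT hosts it was Gzma at 8.18, Gzmb at 5.11, Nkg7 at 4.63, Cd8a at 2.83, Cd8b1 at 2.25, Ifng at 1.28, Tbx21 at 0.661, Eomes at 0.571, Klrk1 at 0.371 and Prf1 at 0.203 RPKM. The 5 highest genes held the same places in both hosts, and Ifng stood last in St2-/- hosts and sixth in WT hosts. Each neighbouring pair in either order overlapped in the range of its 6 libraries.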

How the data were processed

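Colon tumours of 12 mice, 3 for each combination of marrow and host genotype, were sequenced from total RNA with an Illumina TruSeq kit as single-end reads, per the labels' protocols. The authors deposited raw read counts, of 24062 genes in a single table where 0 columns lacked a sample. TopHat and Bowtie2, with the builds GRCm38 and mm10, are named per the submitters' processing notes. Not given in the sources used here were versions, counting tool, annotation and strand. Rows without a gene name took 52.3% to 59.6% of each library in St2-/- hosts and 49.8% to 53.2% in WT hosts. Of the St2-/- hosts, only St2-/- => St2-/- replicate 2, at 52.3%, lay within the range of the WT hosts. The part of this difference in the host comparison was not tested. Rows without a gene name stayed out of library sizes and tests.

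From these counts, edgeR 4.0.16 in R 4.3.3 fitted all libraries (filterByExpr by group with a minimum count of 10, TMM, robust quasi-likelihood test, 1 coefficient for each of the 4 groups in 1 fit over 12 libraries, two-sided). Calls needed a Benjamini-Hochberg adjusted p under 0.05 over all 15060 tested genes, and nothing was adjusted over the members alone. The replicates are labelled biological, and p-values measure the spread between them. Errors of fold changes are SE, those of levels SD.

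The 10 genes, the 11 lists of pathway genes and the 10 marker lists were chosen with earlier results of these data known. Named were all 10 genes, the 3 tested genes with the smallest p of each pathway list between hosts, the 10 genes most like the members by Pearson correlation of log2 CPM (prior count 2), and Il1rl1. A few listed genes are counted in their lists but not reported here by name. Receptor constant genes of T cells were not found under their symbols and were not used here. Adgre1 and Gsdme were matched by synonym. Prf1, below the filter, was tested by exact permutation. Ifng was compared with the mean log2 CPM of 31 response genes within each host genotype.

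The alternatives used size factors of DESeq2, its Wald test (version 1.42.0), voom with quality weights (limma 3.58.1), no filter, a filter of CPM 1 in 3 libraries, a replicate block, time since AOM, leukocyte, T cell and smooth muscle scores as covariates, only the groups compared, and libraries left out. The mast cell score as a covariate, the alternatives for the pathway lists, and the omission of 1 library from the levels relative to Cd3, were added after the data had been seen. Libraries of a group differed beyond sampling noise, with a chi-square per degree of freedom of at least 19.3. Simulated counts with known changes were used to test the edgeR fit. The changes were planted only in genes of higher mean level than Ifng and Klrk1, so low counts like theirs were not covered. Coordinates came from GENCODE M21, promoters from RefSeq, and figures from Python 3.11.15.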

Additional observations from a re-analysis of the deposited data

Results flagged for a closer look

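Of 20 groups of 6 libraries, each gene in each host genotype, 4 held a library whose gap to its nearest neighbour was too wide for the range of its group by Dixon's test. In independent, normally distributed groups chance flags about 1 in 20. That rate need not hold here, since each group mixes both marrow genotypes and the genes share libraries. Over the St2-/- hosts, Nkg7, Cd8a and Cd8b1 had Pearson correlations of 0.822 to 0.960 with each other. Gzmb was 13.6 CPM in WT => St2-/- replicate 2, while the other 5 St2-/- hosts had at most 3.80 CPM. In St2-/- => St2-/- replicate 2, Nkg7 was 3.88 CPM, Cd8a 6.09 CPM and Cd8b1 1.90 CPM, each the highest of the St2-/- hosts. No WT host stood apart in this way for any of the 10 genes.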

How the results depend on the processing

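Calls of members between hosts, 2 by edgeR, moved with the tool and the libraries. The count was 6 by the DESeq2 Wald test, 7 by voom, 0 without WT => St2-/- replicates 2 and 3, 0 with the mast cell score, and 0 to 3 when single libraries were left out (0 without St2-/- => St2-/- replicate 1 or 3, and 3 without replicate 2). Of all genes, DESeq2 called 4.55% lower and voom 7.32%, and the share is not given here for the other settings. Of the 31 interferon-gamma response genes, edgeR called 27 with all libraries. It called 1 of them without WT => St2-/- replicates 2 and 3, and 2 with the mast cell score. The cause was not tested. With WT marrow, where edgeR called 0 members, DESeq2 called 5 and voom 1. With St2-/- marrow, where edgeR called 0, DESeq2 called 1 and voom 6. For St2-/- => St2-/- against WT => WT, where edgeR called 0, voom called 7. In the 7 comparisons other than that of hosts over both marrows, leaving out single libraries gave 0 calls each time. The correlation of Ifng with the response genes in WT hosts was 0.58 without the 2 farthest libraries, where only 4 were left. No called value changed sign in any alternative. The replicate number does not pair the samples, since 5 of 18 same-numbered pairs had a correlation of deviations over 0.1 (-0.44 to 0.31) and 1 of 12 libraries correlated best with its own number. With the replicate block, 2 members were called between hosts, Ifng (-4.61, edgeR adjusted p = 0.0253) and Nkg7 (-2.50, adjusted p = 0.0257) in place of Klrk1 (-1.92, adjusted p = 0.0704), and 0 in each of the other comparisons. Depth limits Ifng, Prf1, Tbx21, Cd8b1 and Klrk1, which had 5, 31, 21, 51 and 52 reads over the 6 St2-/- hosts. The 3-against-3 comparisons made few calls of any gene by edgeR, and a missed threshold there does not show equality.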
